A study of Mus musculus with 32 samples.

Results

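The genes described here make up the class I antigen presentation pathway of the mouse together with its inducible proteasome. They are the heavy chains H2-K1 and H2-D1, the light chain B2m, the peptide transporter subunits Tap1 and Tap2, the loading protein Tapbp, the transactivator Nlrc5 and the immunosubunits Psmb8, Psmb9 and Psmb10. The 10 genes were taken by symbol from the 24421 genes of the count tables. All 10 passed the filter on low counts, which left 13453 genes for testing, so no member is missing from the comparisons.

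RNA was sequenced in bulk from macrophages that had been sorted by flow cytometry out of the epididymal fat of C57BL/6J mice. The KO mice lacked A20 in myeloid cells, and the WT mice were wild type. A20 is the product of Tnfaip3 and a brake on NF-kB signalling. For 12 weeks both genotypes were fed either high-fat food (HFD) or standard food (SD), and from each of these 4 conditions a CD11c+ population (CD206 low, CD11c high) and a CD206+ population (CD206 high, CD11c low) were collected. This gave 8 groups of 4 libraries: CD11c+ KO, CD11c+ WT, CD206+ KO and CD206+ WT cells, each on HFD and on SD. The labels name neither the Cre driver nor the age or number of the mice. Nor do they state that each library is a mouse of its own, so the p-values measure the spread between these libraries, which may be technical in part.

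The libraries held between 17619638 and 23832924 gene counts. Levels are given as CPM, counts scaled to a common library size after TMM scaling. Tnfaip3 stood between 167 and 475 CPM in the 16 KO libraries and between 486 and 1647 CPM in the 16 WT libraries, with no overlap. The sort markers followed the labels: Itgax, which encodes CD11c, ran between 146 and 379 CPM in CD11c+ libraries and between 1.26 and 50.3 CPM in CD206+ libraries, and Mrc1, which encodes CD206, between 401 and 723 CPM in CD11c+ and between 1290 and 2147 CPM in CD206+ libraries. The summed macrophage markers (7 genes) lay between 15100 and 22540 CPM in 7 of the groups and between 29640 and 33990 CPM in CD11c+ WT cells on SD, where Lyz2 alone averaged 27500 CPM. A library of CD11c+ WT cells on SD, replicate 4, stood apart from the other 3 of its group and was the highest of them in 9 of the 10 genes. Results that rest on it are given with and without it.

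Class I molecules carry peptides of cytosolic origin to the cell surface, where CD8 T cells read them. The proteasome cuts the peptides, TAP moves them into the endoplasmic reticulum, tapasin (Tapbp) holds TAP next to the empty heavy chain, and the heavy chain leaves for the surface once it has bound B2m and a peptide. Interferon replaces the constitutive catalytic subunits Psmb6, Psmb7 and Psmb5 with Psmb9, Psmb10 and Psmb8, and induces the rest of the pathway through factors that include IRF1 and NLRC5. NF-kB also binds the promoters of heavy chain genes and of B2m.

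On the build GRCm38 (GENCODE M21), 7 of the genes lie on chromosome 17, in or beside the major histocompatibility complex. Psmb9 (chr17:34181987-34187764, minus strand), Tap1 (chr17:34187553-34197225, plus strand), Psmb8 (chr17:34197721-34201454, plus strand) and Tap2 (chr17:34203527-34216321, plus strand) follow each other there. Psmb9 and Tap1 are transcribed away from a shared start region. B2m (chr2:122147686-122153083, plus strand) lies on chromosome 2, and Nlrc5 (chr8:94434356-94527272, plus strand) and Psmb10 (chr8:105935735-105938444, minus strand) on chromosome 8. RefSeq promoter windows on GRCm38.p6, 250 bases before to 50 after each start, matched 8 of the 10 genes by symbol; Tap2 and Nlrc5 had none. The windows of Tap1 and Psmb9 shared 275 of their 300 bases. The RefSeq start of H2-K1 is the GENCODE start, and that of B2m lies 1 base downstream of it. The RefSeq starts of H2-D1 and Psmb8 lie 364 and 474 bases downstream of the GENCODE starts. All 200 bases before these 2 RefSeq starts, and so the letters matched there, lie in annotated exons of the gene itself or of another gene. The stretches that follow are chosen because they hold the matched letters in the heavy and light chains and in an immunosubunit. They are the 200 bases before the RefSeq start for H2-K1 and B2m, and the 30 bases around the match for H2-D1 and Psmb8. Each runs 5′ to 3′ on the gene's own strand. Capitals mark a match to the NF-kB consensus, to the interferon-stimulated response element core (GAAA, any 2 bases, GAAA) or to the gamma-activated site (TTC, any 3 bases, GAA), searched on both strands.
H2-K1, chr17:34000348-34000547, minus strand: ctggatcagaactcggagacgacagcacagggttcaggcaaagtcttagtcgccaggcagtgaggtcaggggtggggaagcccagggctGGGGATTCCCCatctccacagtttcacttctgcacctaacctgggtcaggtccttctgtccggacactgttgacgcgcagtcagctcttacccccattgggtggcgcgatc
H2-D1, chr17:35262913-35262942, plus strand: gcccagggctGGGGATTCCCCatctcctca
B2m, chr2:122147487-122147686, plus strand: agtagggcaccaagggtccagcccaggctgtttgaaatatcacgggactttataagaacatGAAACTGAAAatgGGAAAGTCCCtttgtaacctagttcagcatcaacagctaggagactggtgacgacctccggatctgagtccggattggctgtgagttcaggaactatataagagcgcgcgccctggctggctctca
Psmb8, chr17:34198087-34198116, plus strand: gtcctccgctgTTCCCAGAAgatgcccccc
The heavy chain windows hold the same 11 letters, GGGGATTCCCC, which match the NF-kB consensus in 2 overlapping registers, and the H2-K1 and H2-D1 windows were 88.3% identical over 239 aligned bases. H2-K1 has 2 RefSeq windows, of which the first is shown and compared. B2m has a response element core and, 3 bases further on, an NF-kB match. Psmb8 has gamma-activated site letters 97 to 89 bases before its RefSeq start. Tap1, Psmb9, Tapbp and Psmb10 hold none of these letters in their windows. The windows of Tapbp (chr17:33919228-33919527) and Psmb9 (chr17:34187281-34187580) lie wholly downstream of the GENCODE starts, 33915899 and 34187764. Sequence upstream of these GENCODE starts was thus not searched for them. All 200 bases before the RefSeq start of Tap1 lie in annotated exons. Of all 32851 windows, 8.46% hold the NF-kB consensus, 3.44% the response element core and 8.3% the gamma-activated site. A match is a description of letters and was not tested for binding.

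All 10 genes were higher in KO than in WT cells in both populations and on both diets. The call rule was an adjusted p under 0.05 by edgeR's quasi-likelihood test, with Benjamini-Hochberg adjustment over all genes tested. Of all genes, 18.6% were called higher and 19.4% lower in KO cells in CD11c+ cells on HFD, 13.2% and 13.6% in CD11c+ cells on SD, 10.5% and 11.3% in CD206+ cells on HFD, and 11.8% and 12.7% in CD206+ cells on SD. The median log2 fold change of the 10 genes was 1.49 in CD11c+ cells on HFD, 1.20 in CD11c+ cells on SD, 1.39 in CD206+ cells on HFD and 1.39 in CD206+ cells on SD, against medians of all genes between -0.04 and 0.00. In bulk samples fewer cells of a type and less RNA per cell cannot be told apart.

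**Figure D1:**
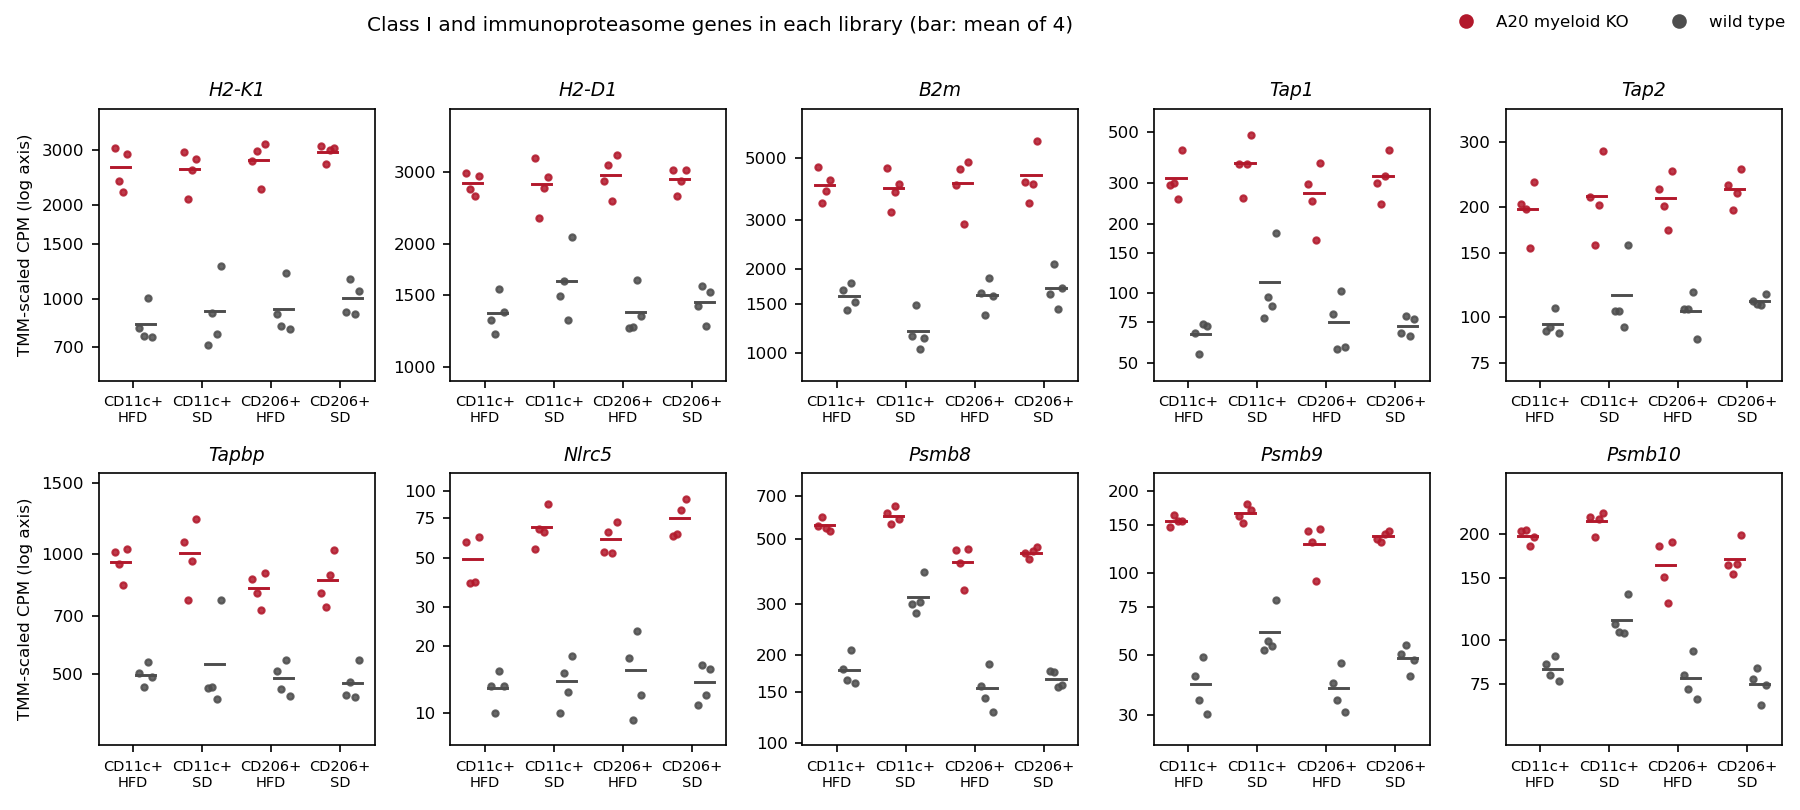
TMM-scaled CPM of the 10 genes (log axis) in each of the 32 libraries, by population and diet on the horizontal axis. Points are libraries, bars the mean of 4, and KO stands left of WT; in every panel the 4 KO groups sit above their WT partners, and the highest WT point in most panels is replicate 4 of CD11c+ cells on SD.

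The heavy chain H2-K1 had 3035, 2391, 2202 and 2915 CPM in CD11c+ KO libraries on HFD, against 805, 762, 1003 and 753 CPM in CD11c+ WT libraries on HFD. The lowest KO library was thus above the highest WT library, and the log2 fold change was 1.67 ± 0.16 (SE, n = 4 each, edgeR adjusted p = 2.53e-09). On SD the 4 CD11c+ KO libraries had 2083 to 2958 CPM and the 4 WT libraries 711 to 1278 CPM. In CD206+ cells the KO mean of H2-K1 was 2773 ± 379 CPM on HFD, against 931 ± 189 CPM in WT, and the KO mean on SD was 2953 ± 177 CPM, against 1004 ± 125 CPM in WT (SD, n = 4 each). Its log2 fold changes in the other 3 comparisons lay between 1.51 and 1.58.

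H2-D1, the other classical heavy chain of this strain, had log2 fold changes between 0.78 and 1.11, below those of H2-K1 in each of the 4 comparisons of KO with WT cells, though the difference between the genes was not tested. In the CD11c+ population on HFD its mean was 2812 ± 170 CPM in the KO group and 1353 ± 145 CPM in the WT group, a log2 fold change of 1.06 ± 0.12 (edgeR adjusted p = 6.54e-08). The CD11c+ comparison on SD gave the smallest change of this gene, 0.78 ± 0.12, with 2311 to 3234 CPM in KO and 1302 to 2083 CPM in WT libraries. B2m, which pairs with every class I heavy chain, had 4643, 3447, 3823 and 4178 CPM in CD11c+ KO libraries on HFD, against 1686, 1429, 1795 and 1523 CPM in WT libraries. On SD the KO libraries of this population had 4612, 3223, 3790 and 4056 CPM and the WT libraries 1157, 1487, 1039 and 1139 CPM. Of its 4 changes this was the largest, at 1.70 ± 0.16 (edgeR adjusted p = 2.62e-09). In CD206+ cells its log2 fold changes were 1.33 ± 0.16 on HFD and 1.34 ± 0.16 on SD.

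Among the loading genes the transporter subunit Tap1 stood out by size. It had 295, 299, 255 and 415 CPM in CD11c+ KO libraries on HFD, against 67.7, 54.5, 73.5 and 72.0 CPM in WT libraries, a log2 fold change of 2.24 ± 0.25 (4.72-fold, edgeR adjusted p = 3.09e-08). In CD206+ cells on SD it had 300, 244, 322 and 415 CPM in KO and 67.4, 79.8, 65.1 and 77.8 CPM in WT libraries, a change of 2.14 ± 0.25. These 2 comparisons share no library. In CD11c+ cells on SD the change was 1.72 ± 0.25, with 183 CPM in WT replicate 4 and 78.1 to 96.7 CPM in the other 3 WT libraries.

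Tap2, the partner subunit, changed by 0.90 to 1.04 on the log2 scale, less than Tap1 in each comparison; the difference between the 2 genes was not tested. In the CD11c+ population on HFD the KO mean was 197 ± 32.5 CPM and the WT mean 95.7 ± 7.25 CPM. Tapbp, which encodes tapasin, showed the smallest changes of the 10 genes in 3 of 4 comparisons, between 0.75 ± 0.15 in CD206+ cells on HFD and 0.94 ± 0.15 in CD11c+ cells on HFD. Its libraries overlapped in CD11c+ cells on SD, where KO replicate 2 had 765 CPM and WT replicate 4 had 765 CPM. No library of KO overlapped a library of WT in any of the other 39 combinations of gene and comparison. For comparison, no overlap with KO above WT was found for 17.2%, 11.7%, 12.3% and 12.8% of all genes in the comparisons as ordered above.

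Nlrc5, the transactivator that binds class I promoters, showed the largest change of the 10 genes in 3 of 4 comparisons. It had 62.3, 64.2, 82.1 and 92.1 CPM in CD206+ KO libraries on SD, against 10.9, 16.4, 12.0 and 15.8 CPM in WT libraries, a log2 fold change of 2.45 ± 0.23 (5.45-fold, edgeR adjusted p = 7.11e-09). The CD11c+ libraries on SD had 54.6 to 86.7 CPM in KO and 10.1 to 18.2 CPM in WT cells, a change of 2.29 ± 0.23. On HFD the change was 1.93 ± 0.23 in CD11c+ cells and 1.96 ± 0.23 in CD206+ cells.

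The immunosubunits rose as well. Psmb8, the chymotrypsin-like subunit also called LMP7, had 552, 596, 548 and 535 CPM in CD11c+ KO libraries on HFD, against 179, 164, 208 and 161 CPM in WT libraries (log2 fold change 1.65 ± 0.11, edgeR adjusted p = 3.17e-12). On SD the same population had 612, 562, 647 and 584 CPM in KO and 300, 280, 304 and 386 CPM in WT libraries, a change of 0.92 ± 0.11. In this population the 4 WT libraries on SD were all above the 4 WT libraries on HFD, while the KO libraries of the diets overlapped. In CD206+ cells Psmb8 changed by 1.44 ± 0.11 on HFD and by 1.44 ± 0.11 on SD.

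Psmb9, the LMP2 subunit, had 148, 163, 156 and 156 CPM in CD11c+ KO libraries on HFD and 41.9, 34.2, 49.2 and 30.3 CPM in WT libraries, a log2 fold change of 2.00 ± 0.15 (edgeR adjusted p = 1.74e-11). Its other changes were 1.46 ± 0.15 in CD11c+ cells on SD, 1.76 ± 0.15 in CD206+ cells on HFD and 1.49 ± 0.15 in CD206+ cells on SD. Psmb10, the MECL-1 subunit, had a mean of 198 ± 9.66 CPM in KO against 82.8 ± 5.95 CPM in WT cells of the CD11c+ population on HFD, a change of 1.26 ± 0.12. Its smallest change, 0.94 ± 0.11, was again in CD11c+ cells on SD.

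**Figure D2:**
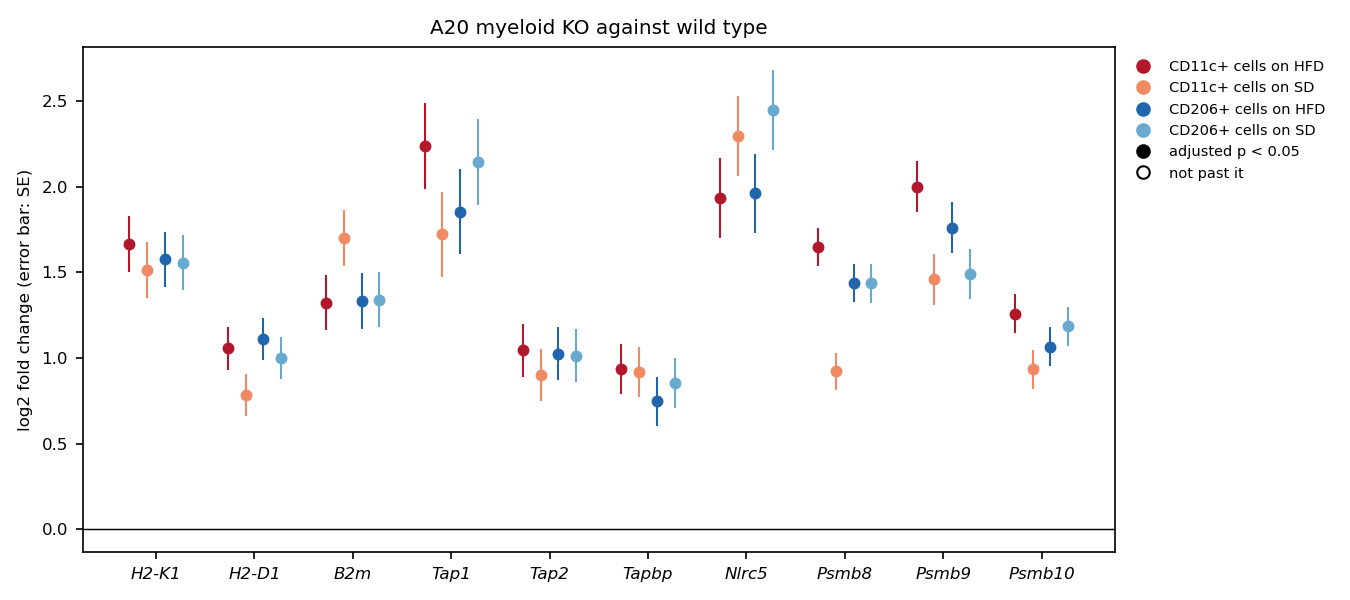
Log2 fold change of KO against WT cells for each gene (error bar: SE of the edgeR fit, 4 libraries a group), by population and diet. All 40 points are past the threshold and above 0, between 0.75 for Tapbp and 2.45 for Nlrc5.

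The order of group means was alike for the 10 genes: each had its 4 KO groups above its 4 WT groups. Over all 32 libraries, H2-K1, H2-D1, B2m, Nlrc5 and Psmb9 had every KO library above every WT library. The lowest KO and the highest WT value were 2083 and 1278 CPM for H2-K1, 2910 and 2085 CPM for B2m, and 38.4 and 23.4 CPM for Nlrc5. For Tap1, Tap2, Tapbp, Psmb8 and Psmb10 the highest WT library was replicate 4 of CD11c+ cells on SD, and it overlapped the KO range. Without that library all 10 genes separated the 16 KO from the 15 remaining WT libraries. It was singled out because it was the highest of its group in 9 of these same genes, so leaving it out favours separation. The share of all genes that separate these libraries was not counted.

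Neighbouring groups of the same genotype mostly did not differ beyond their spread. Nlrc5 averaged 75.2 ± 14.4 CPM in CD206+ KO cells on SD, 68.4 ± 13.4 CPM in CD11c+ KO cells on SD, 60.8 ± 9.79 CPM in CD206+ KO cells on HFD and 49.5 ± 12.6 CPM in CD11c+ KO cells on HFD, followed by 13.0 to 15.6 CPM in the 4 WT groups. Psmb8 was ordered otherwise: 601 ± 36.8 CPM in CD11c+ KO cells on SD, 558 ± 26.7 CPM in CD11c+ KO cells on HFD, 449 ± 17.9 CPM in CD206+ KO cells on SD, 417 ± 58.5 CPM in CD206+ KO cells on HFD, then 317 ± 46.8 CPM in CD11c+ WT cells on SD and 154 to 178 CPM in the other 3 WT groups.

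CPM per kilobase of annotated exon allow the genes to be set beside each other. Mean levels per kilobase in CD11c+ KO cells on HFD were highest for B2m with 4678, followed by H2-D1 with 1090, H2-K1 with 897, Tapbp with 263, Psmb8 with 165, Psmb10 with 116, Tap1 with 57.7, Tap2 with 52.2, Psmb9 with 42.5 and Nlrc5 with 5.83. In CD11c+ WT cells on HFD the same levels were 1870 for B2m, 525 for H2-D1, 283 for H2-K1, 137 for Tapbp, 52.7 for Psmb8, 48.6 for Psmb10, 12.2 for Tap1, 25.3 for Tap2, 10.6 for Psmb9 and 1.53 for Nlrc5. Levels per kilobase of Tap1 and Tap2 overlapped in the KO libraries (46.5 to 75.8 and 40.9 to 61.7), while in the WT libraries Tap1 (9.96 to 13.4) stayed below Tap2 (23.9 to 28.1). The lengths join the exons of all annotated transcripts, so a gene with rare long transcripts is placed too low.

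Some of these counts may hold reads of neighbours, since neither the strand setting nor the handling of shared reads is stated in the sources used here. Of 75-base windows in the annotated transcripts, 3.1% for H2-K1 and 5.56% for H2-D1 also occur in other genes, H2-Q genes among them, while 0.642% of the H2-K1 windows occur in H2-D1. The heavy chain counts are therefore uncertain, and these shares do not measure by how much. Tap1 and Psmb9 overlap by 212 exonic bases on opposite strands. An annotated antisense gene covers 24.9% of the exon length of Tapbp (Gm19412), 14.7% of that of Psmb8 (Gm20496) and 14.1% of that of Tap2 (Gm15821). B2m and Psmb10 shared no such window with another annotated gene.

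Each immunosubunit replaces 1 constitutive subunit, so the ratio of the pair within a library was compared too. These ratios are of CPM without length, and only their differences between groups are used. Psmb8 over Psmb5 was 4.34, 3.98, 3.83 and 4.59 in CD11c+ KO libraries on HFD, against 1.59, 1.46, 1.78 and 1.35 in WT libraries. Psmb9 over Psmb6 was 0.801, 0.811, 0.719 and 0.892 in the same KO libraries, against 0.168, 0.151, 0.208 and 0.144 in WT libraries. Both ratios separated the genotypes fully, by 1.44 and 2.28 on the log2 scale. The difference for Psmb10 over Psmb7 was 0.90. In CD11c+ cells on SD the 3 differences were 0.94, 1.32 and 0.78, in CD206+ cells on HFD 1.45, 1.98 and 0.96, and in CD206+ cells on SD 1.28, 1.31 and 0.96. No library overlapped between the genotypes in any of these 12 tests. The 2-sided exact permutation test gave p = 0.0286 for each, the smallest that 4 libraries against 4 allow, and 0.0514 after adjustment over 36 ratio tests, which misses the threshold.

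**Figure D3:**
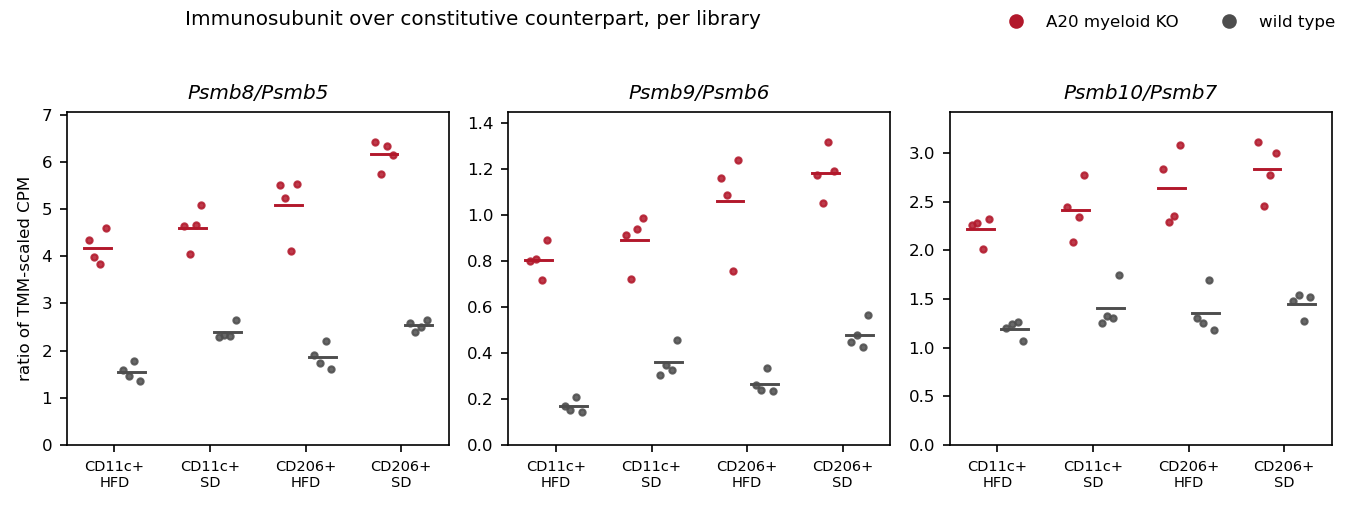
Ratio of the CPM of each immunosubunit to that of its constitutive counterpart in each library, by population and diet (points: libraries; bars: means of 4; KO left of WT). In each panel the lowest KO library stands above the highest WT library of its pair, and within each population the WT libraries on HFD stand below those on SD for Psmb8/Psmb5 and Psmb9/Psmb6.

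Psmb5 changed by 0.22 ± 0.08 in CD11c+ cells on HFD (edgeR adjusted p = 0.026) and Psmb7 by 0.36 ± 0.07 there (edgeR adjusted p = 0.000231), while Psmb6 was lower (-0.25 ± 0.09, edgeR adjusted p = 0.0206). Psmb7 also rose in CD206+ cells on SD, by 0.23 ± 0.07 (edgeR adjusted p = 0.0245). The other 8 changes of these 3 genes did not pass and lay between -0.23 and 0.18. Of the 14 genes of the constitutive 20S core, 12 were higher and 1 lower in CD11c+ KO cells on HFD, 3 higher in CD11c+ cells on SD, 8 in CD206+ cells on HFD and 12 in CD206+ cells on SD. Their median log2 fold changes, 0.46, 0.12, 0.27 and 0.32 in that order, were below those of the 10 genes. The shares of all genes higher were 18.6%, 13.2%, 10.5% and 11.8% in the same order. The alpha-ring subunits Psma4 (0.82 ± 0.11) and Psma7 (0.78 ± 0.11) rose most in CD11c+ cells on HFD.

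Other genes of the pathway were taken from lists chosen with earlier results of these data known. Of 9 loading and trimming partners, 5 were higher and 0 lower in CD11c+ cells on HFD, 4 and 0 in CD11c+ cells on SD, and 5 and 0 in CD206+ cells on either diet, so that 4 or 5 of the 9 were not called. The shares of all genes higher were 18.6% on HFD and 13.2% on SD in CD11c+ cells, and 10.5% and 11.8% in CD206+ cells. Psme2, a subunit of the PA28 proteasome activator, had 301, 293, 283 and 277 CPM in CD11c+ KO libraries on HFD and 119, 110, 129 and 95.5 CPM in WT libraries, a log2 fold change of 1.35 ± 0.11. The peptide editor Tapbpl rose by 1.14 ± 0.16 in that comparison and by 1.34 ± 0.15 in CD206+ cells on SD. These 2 genes showed the largest changes of the list in all 4 comparisons.

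Of 16 listed non-classical class I genes, 12 were tested, of which 9 were higher and 1 lower in CD11c+ cells on HFD, 8 and 1 in CD11c+ cells on SD, 8 and 0 in CD206+ cells on HFD, and 7 and 2 in CD206+ cells on SD. All genes gave 18.6%, 13.2%, 10.5% and 11.8% higher and 19.4%, 13.6%, 11.3% and 12.7% lower in that order. The counts of lower genes are near or below these shares. H2-Q4 had 41.7, 27.1, 20.4 and 39.6 CPM in CD11c+ KO libraries on HFD and 6.64, 7.03, 8.22 and 4.01 CPM in WT libraries, a log2 fold change of 2.32 ± 0.22. H2-M2, a class I-like gene of the same region, rose by 4.02 ± 0.34 in CD11c+ cells on SD. The members that fell were Mr1, which presents vitamin B metabolites (-0.64 ± 0.16 in CD11c+ cells on HFD), Hfe, the iron-regulating class I protein (-0.73 ± 0.14 in CD11c+ and -0.69 ± 0.14 in CD206+ cells on SD), and the lipid-presenting Cd1d1 (-0.91 ± 0.22 in CD206+ cells on SD). H2-Q genes share sequence with each other and with H2-D1, so their counts are uncertain.

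Of 8 listed transcription factors of the pathway, 1 was higher and 1 lower in CD11c+ cells on HFD, 1 was lower in CD206+ cells on HFD, and 3 were higher and 1 lower in CD206+ cells on SD. Of all genes 18.6% were higher and 19.4% lower in CD11c+ cells on HFD, 10.5% and 11.3% in CD206+ cells on HFD, and 11.8% and 12.7% in CD206+ cells on SD, so the counts on HFD are near the background. In CD11c+ cells on SD none of the 8 passed in the edgeR fit, with log2 fold changes between -0.045 and 0.31 and a smallest unadjusted edgeR p of 0.0533. Nfkb1, which encodes the p50 subunit of NF-kB, was lower in CD206+ cells on HFD (-0.36 ± 0.12, edgeR adjusted p = 0.0297) and higher in CD206+ cells on SD (0.42 ± 0.12, edgeR adjusted p = 0.011). Irf1 passed in CD206+ cells on SD alone (0.76 ± 0.20, edgeR adjusted p = 0.00637), with values of 0.45, 0.31 and 0.49 in the other comparisons. Rfx5, a subunit of the complex that NLRC5 joins at class I promoters, did not pass in any (-0.04 to 0.39).

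The antiviral interferon-stimulated genes and the class II genes were set beside the 10 genes as lists. Of 18 antiviral genes, 17 were higher in CD11c+ cells on HFD, 17 in CD11c+ cells on SD, 18 in CD206+ cells on HFD and 16 in CD206+ cells on SD, with 0 lower. Irf7, the factor that amplifies type I interferon, rose by 2.93 ± 0.24 in CD11c+ cells on HFD and by 3.98 ± 0.25 in CD11c+ cells on SD. Ifit1, an inhibitor of viral translation, rose by 2.91 ± 0.31 in CD11c+ cells on HFD, and its relative Ifit2 by 3.69 ± 0.32 in CD11c+ cells on SD. Of 11 class II genes with their activator Ciita, 11 were higher in CD11c+ cells on HFD and 8 in CD206+ cells on HFD. On SD, 1 was higher and 3 lower in CD11c+ cells, and 1 higher and 1 lower in CD206+ cells. Of all genes 18.6% were higher and 19.4% lower in CD11c+ cells on HFD, and 13.2% and 13.6% on SD. In CD206+ cells these shares were 10.5% and 11.3% on HFD, and 11.8% and 12.7% on SD. A count of 1 of the 11 class II genes is thus near the background. The beta chain gene H2-Eb2 was higher in CD11c+ cells on both diets (3.20 ± 0.53 on HFD and 3.30 ± 0.53 on SD), whereas H2-DMb2, which encodes a chain of the class II peptide editor, was higher on HFD (2.47 ± 0.29) and lower on SD (-1.69 ± 0.26). Ciita rose by 0.81 ± 0.12 in CD11c+ cells and by 0.55 ± 0.12 in CD206+ cells on HFD, and did not pass on SD (0.09 ± 0.12 and 0.27 ± 0.12).

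**Figure D4:**
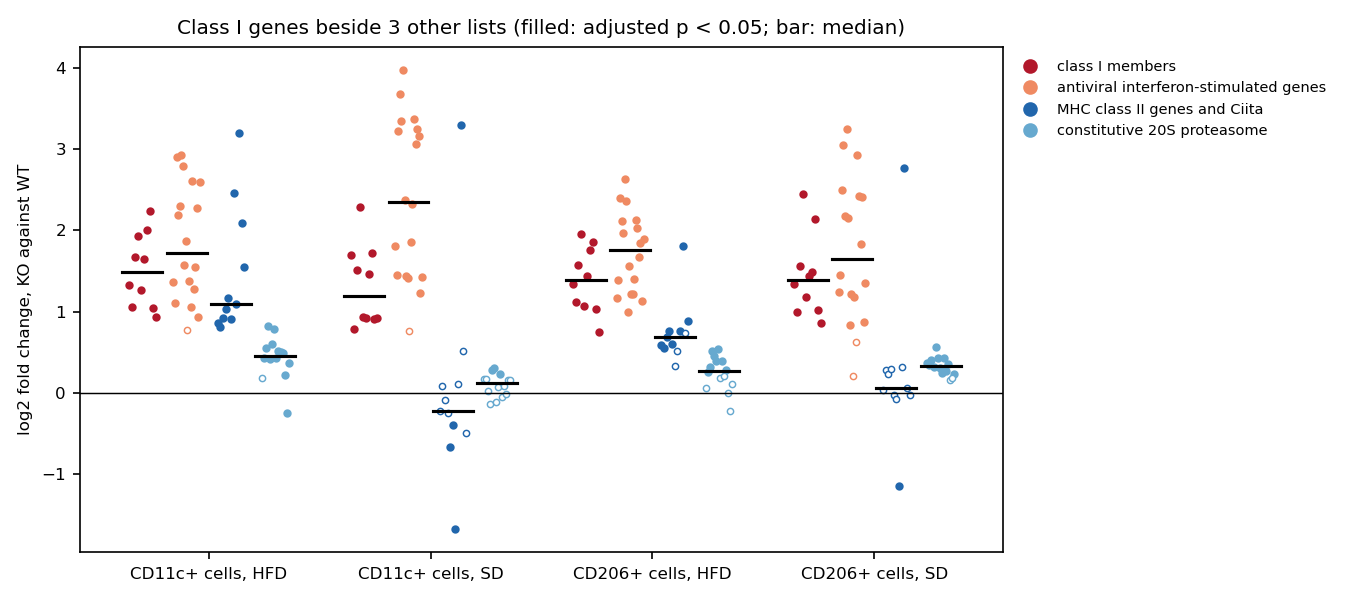
Log2 fold changes of KO against WT cells for the 10 class I genes, 18 antiviral interferon-stimulated genes, 11 class II genes including Ciita and 14 constitutive proteasome genes, by population and diet (points: genes, filled past the threshold; bars: medians). The class I median lies between 1.20 and 1.49 in all 4 comparisons, while the class II median is 1.09 in CD11c+ cells on HFD and -0.23 in CD11c+ cells on SD.

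Markers of other cells moved with the genotype as well, in part of the lists. All genes gave 18.6% higher and 19.4% lower in CD11c+ cells on HFD, and 13.2% and 13.6% on SD. For CD206+ cells the shares were 10.5% and 11.3% on HFD, and 11.8% and 12.7% on SD. A count of 1 in a marker list is near these shares. Of 13 listed T and NK cell markers, 12 were tested, and 11, 6, 9 and 9 were higher in KO cells in CD11c+ cells on HFD, CD11c+ cells on SD, CD206+ cells on HFD and CD206+ cells on SD, and 0, 1, 0 and 1 lower. The summed level of the 13 genes was 73.7 to 134 CPM in KO and 12.6 to 20.3 CPM in WT libraries of CD11c+ cells on HFD, 87.5 to 177 CPM in KO and 11.9 to 20.7 CPM in WT libraries of CD206+ cells on HFD, and 110 to 191 CPM in KO and 26.1 to 37.0 CPM in WT libraries of CD206+ cells on SD. In CD11c+ cells on SD the sum ran the other way, 80.4 to 126 CPM in KO and 148 to 219 CPM in WT libraries. Yet 6 of the 12 markers tested were called higher there and 1 lower. No T and NK marker was at 0 in every library of a group.

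Dendritic cell markers rose in 7 of 7 genes in CD11c+ cells on HFD (86.3 to 257 CPM summed in KO, 29.97 to 109 CPM in WT libraries). In CD11c+ cells on SD, 2 of 7 were higher and 1 lower (106 to 253 CPM in KO, 294 to 595 CPM in WT libraries). In CD206+ cells on HFD 1 of 7 was higher, and the sums overlapped (28.3 to 46.0 CPM in KO, 24.95 to 36.1 CPM in WT libraries). In CD206+ cells on SD 1 of 7 was higher and 2 were lower. There the sums were 23.4 to 45.8 CPM in KO and 248 to 321 CPM in WT libraries, without overlap. Of 5 neutrophil markers tested, 2, 1, 3 and 2 were higher and 0 lower in the 4 comparisons in the same order. The 6 neutrophil genes summed to 54.4 to 109 CPM in KO and 24.8 to 31.15 CPM in WT libraries of CD11c+ cells on HFD. On SD these sums were 61.2 to 96.3 and 8.73 to 14.7 CPM. In CD206+ cells they were 81.3 to 98.1 and 27.1 to 51.9 CPM on HFD. The CD206+ sums on SD were 85.8 to 112 and 36.2 to 53.2 CPM. KO thus stood above WT without overlap in all 4 comparisons. Stromal markers fell in 6 of 6 genes in both populations on HFD, with 67.4 to 117 CPM summed in KO and 184 to 567 CPM in WT libraries of CD11c+ cells, and 188 to 260 CPM in KO and 412 to 1849 CPM in WT libraries of CD206+ cells, and in 0 and 1 of 6 on SD. Endothelial markers were lower in 3, 4, 0 and 5 of 6 genes and mast cell markers in 2, 0, 1 and 0 of 5, in the same order, with none higher. The endothelial sums did not overlap on SD, with 26.8 to 40.5 CPM in KO and 58.4 to 128 CPM in WT libraries of CD11c+ cells, and 69.2 to 85.9 CPM in KO and 168 to 243 CPM in WT libraries of CD206+ cells. Of 5 adipocyte markers, 1, 1, 4 and 1 were higher and 1, 0, 0 and 2 lower, and on HFD their sum in CD206+ cells was 29.8 to 71.7 CPM in KO and 8.79 to 25.2 CPM in WT libraries.

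Immediate early genes and the macrophage markers moved too, in part of the comparisons. Beside them stand 18.6%, 13.2%, 10.5% and 11.8% of all genes higher, and 19.4%, 13.6%, 11.3% and 12.7% lower. These shares follow the order of comparisons used for the cell markers, and a count of 1 here is near them. Of 8 immediate early genes, which respond to tissue handling, 3, 0, 1 and 0 were higher and 1, 4, 0 and 3 lower in KO cells, again in that order. Their sum in CD11c+ cells on SD was 6595 to 9613 CPM in KO and 9651 to 13570 CPM in WT libraries. Of the 7 macrophage markers, 0, 4, 0 and 3 were higher and 2, 1, 1 and 0 lower. In CD11c+ cells on SD their sum was 17360 to 20130 CPM in KO and 29640 to 33990 CPM in WT libraries. Lyz2, which encodes lysozyme, was the marker that fell there (-1.08 ± 0.13), while Adgre1, Csf1r, Mertk and Fcgr1 rose (0.51 to 2.01). Class I genes are expressed by most nucleated cells, and the part of these cells and of handling in the class I values was not tested.

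None of the 10 genes was called between the diets in KO cells. In CD11c+ KO cells 0 of 10 passed by edgeR and 0 by DESeq2, and at an unadjusted p under 0.05 only Nlrc5 was lower on HFD (-0.47 ± 0.22). The corresponding counts in CD206+ KO cells were 0, 0 and 0. The background was as low: 0.00743% of all genes (1 gene) were higher and 0% lower in CD11c+ KO cells, and 0% in either direction in CD206+ KO cells. For Psmb8 the 95% interval of the difference ran between -0.33 and 0.12 in CD11c+ KO cells, and for Tap1 between -0.70 and 0.27.

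In CD11c+ WT cells the immunosubunits were lower on HFD than on SD. Psmb8 had 179, 164, 208 and 161 CPM on HFD, against 300, 280, 304 and 386 CPM on SD, a log2 fold change of -0.83 ± 0.11 (edgeR adjusted p = 2.72e-07). Psmb9 (-0.64 ± 0.15), Psmb10 (-0.46 ± 0.11) and Tap1 (-0.73 ± 0.24) were lower as well, all without overlap of libraries. B2m was the exception, with 1686, 1429, 1795 and 1523 CPM on HFD against 1157, 1487, 1039 and 1139 CPM on SD (0.42 ± 0.16, edgeR adjusted p = 0.0317), and the libraries overlapped. That makes 4 of 10 lower and 1 higher, beside 22.6% of all genes lower and 23.8% higher, and 19.4% of all genes lower without overlap. H2-D1 (-0.26 ± 0.12, edgeR adjusted p = 0.0781) passed by DESeq2, which called 5 members lower, and stood at -0.11 without replicate 4 of the SD group. H2-K1, Tap2, Tapbp and Nlrc5 had differences between -0.26 and -0.09 and did not pass. Without replicate 4 of the SD group Psmb8, Psmb9 and Psmb10 still passed (-0.72, -0.47 and -0.36), while Tap1 (-0.38, edgeR adjusted p = 0.174) and B2m (0.40, edgeR adjusted p = 0.063) did not. The B2m call was lost in 6 of the 8 fits that left out 1 library (replicates 1, 3 and 4 of either diet).

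**Figure D5:**
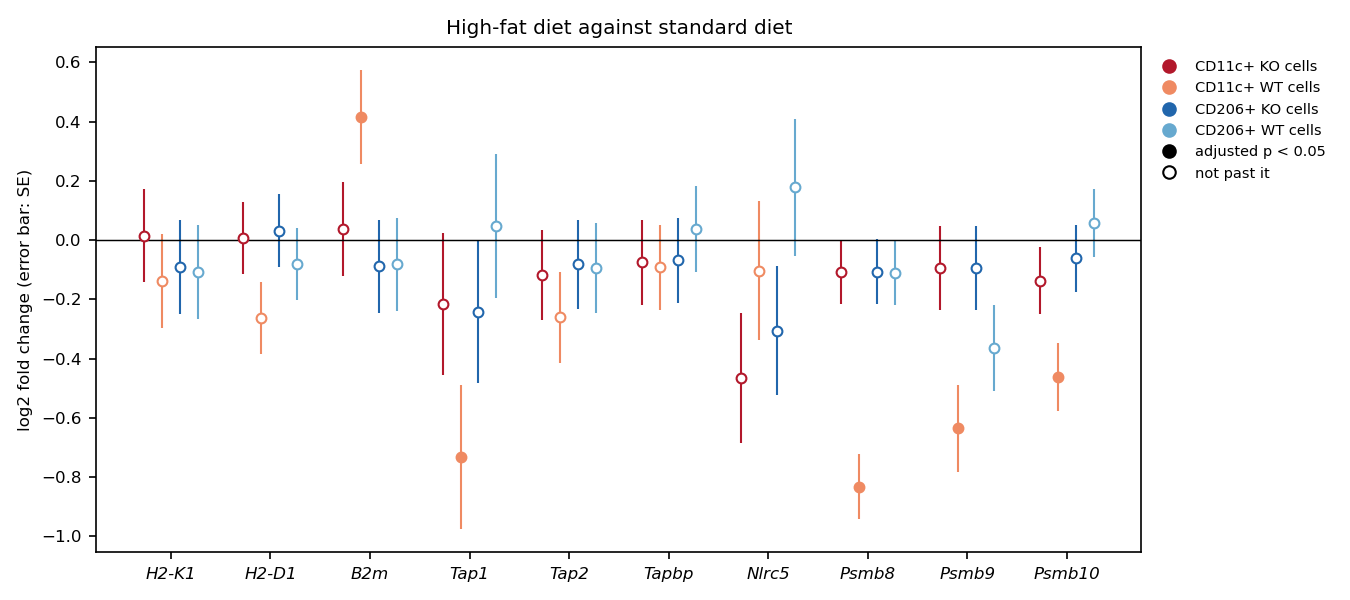
Log2 fold change of HFD against SD for each gene (error bar: SE), by population and genotype; filled points are past the threshold. Filled points are found in CD11c+ WT cells alone: B2m above 0, and Tap1, Psmb8, Psmb9 and Psmb10 below 0.

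No member passed between the diets in CD206+ WT cells by edgeR or DESeq2, where 14.2% of all genes were higher and 13.5% lower. At an unadjusted p under 0.05, 1 member was lower: Psmb9 averaged 37.7 ± 6.88 CPM on HFD and 48.6 ± 5.22 CPM on SD (-0.37 ± 0.15, edgeR adjusted p = 0.061). The ratios moved in WT cells too. Psmb9 over Psmb6 was 0.144 to 0.208 in CD11c+ WT libraries on HFD and 0.303 to 0.458 on SD, a log2 difference of -1.09, and in CD206+ WT libraries 0.234 to 0.334 on HFD and 0.424 to 0.563 on SD, a difference of -0.85. Psmb8 over Psmb5 differed by -0.64 and -0.45. In CD206+ WT cells Psmb8 itself stood at -0.11 (edgeR adjusted p = 0.49), while Psmb5 was higher on HFD (0.325 ± 0.08, edgeR adjusted p = 0.00229). In CD11c+ WT cells Psmb5 was lower on HFD (-0.20 ± 0.08, edgeR adjusted p = 0.0378). These 4 differences had no overlap and reached p = 0.0286 by the exact permutation test, 0.0514 adjusted. In KO cells Psmb8 over Psmb5 in the CD206+ population, 4.10 to 5.53 on HFD and 5.75 to 6.43 on SD, had no overlap either, with a log2 difference of -0.28, though neither gene passed there. Psmb6 itself rose on HFD, by 0.46 ± 0.09 in CD11c+ and 0.47 ± 0.09 in CD206+ WT cells, so both terms of its ratio moved in CD11c+ cells. Psmb10 over Psmb7 differed by -0.23 in CD11c+ and -0.11 in CD206+ WT cells, with overlap.

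Members of other lists also changed in CD11c+ WT cells between the diets. Of the 14 constitutive proteasome genes, 12 were lower and 1 higher on HFD, led by Psma4 (-1.09 ± 0.11), and of the 11 class II genes 10 were lower, led by H2-DMb2 (-4.37 ± 0.30). Antiviral genes were mixed, with 7 higher and 4 lower of 18. Among markers of other cells, 6 of 6 stromal and 5 of 5 mast cell genes were higher on HFD, 3 of 7 dendritic and 2 of 12 T and NK cell genes were lower, and 6 of 8 immediate early genes were lower, beside the 23.8% of all genes higher and 22.6% lower. The share of T and NK cell genes is below that background. Of the 7 macrophage markers 5 were higher and 2 lower, with a sum of 19450 to 22540 CPM on HFD and 29640 to 33990 CPM on SD, and the lower ones were Lyz2 (-0.99 ± 0.13) and Itgam (-0.46 ± 0.16). Summed T and NK markers were 12.6 to 20.3 CPM on HFD and 148 to 219 CPM on SD. The part of all these markers in the values of the immunosubunits was not tested.

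The effect of genotype differed between the diets for 2 of the 10 genes in CD11c+ cells. Psmb8 changed by 1.65 on HFD and 0.92 on SD, a difference of 0.72 ± 0.16 (edgeR adjusted p = 0.000595), and Psmb9 by 2.00 and 1.46, a difference of 0.54 ± 0.20 (edgeR adjusted p = 0.0445). Of all genes 13.9% had such a call for higher and 15% for lower, so 2 of 10 members is near the background. The Psmb8 difference passed in all 16 fits that left out 1 library, and the Psmb9 difference in 7 of them. Without replicate 4 of CD11c+ WT cells on SD these differences were 0.61 (edgeR adjusted p = 0.00191) and 0.38 (edgeR adjusted p = 0.141). In CD206+ cells no interaction of genotype with diet passed for any member by edgeR or DESeq2, and 0 had an unadjusted p under 0.05, beside 5.23% of all genes higher and 6.63% lower. The Psmb8 interval there ran between -0.31 and 0.32. These comparisons reuse the libraries of the diet and genotype comparisons and are not independent of them.

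Between the populations, Psmb8 and Psmb10 were the members called in 3 of 4 conditions, higher in CD11c+ cells each time. In KO cells on HFD, Psmb8 had 552, 596, 548 and 535 CPM in CD11c+ libraries and 459, 414, 336 and 461 CPM in CD206+ libraries (0.42 ± 0.11, edgeR adjusted p = 0.00264), without overlap. Psmb10 was higher by 0.28 ± 0.11 (edgeR adjusted p = 0.0451) but overlapped, and lost its call in 5 of the 8 fits without 1 library (CD11c+ replicates 1, 2 and 4, CD206+ replicates 2 and 3). In KO cells on SD, Psmb8 (0.42 ± 0.11) and Psmb10 (0.36 ± 0.11) were higher. H2-K1, H2-D1, B2m, Tap1, Tap2 and Nlrc5 had differences between -0.18 and 0.20 and did not pass. Same-numbered libraries of the 2 populations vary together in that condition, and with the replicate number as a block Psmb9 (0.28 ± 0.10, edgeR adjusted p = 0.0261) and Tapbp (0.22 ± 0.08, edgeR adjusted p = 0.0298) passed too, 4 of 10 in place of 2. Of all genes 23.3% were higher and 22.5% lower on HFD, and 25.6% and 26.1% on SD, both without the block. The counts of 2 members higher without the block are thus near the background. With the block 3720 of the 13453 genes were higher and 3850 lower on SD. The ratio of Psmb8 to Psmb5 ran the other way on SD, 4.05 to 5.09 in CD11c+ and 5.75 to 6.43 in CD206+ KO libraries (-0.42, exact permutation p = 0.0286, adjusted 0.0514). Psmb5 itself was higher in CD11c+ cells there (0.85 ± 0.08, edgeR adjusted p = 7.68e-10).

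In WT cells on SD, Psmb8 had 300, 280, 304 and 386 CPM in CD11c+ libraries and 176, 175, 156 and 158 CPM in CD206+ libraries, a log2 fold change of 0.93 ± 0.11 (edgeR adjusted p = 2.61e-08). Psmb10 (0.60 ± 0.11) was higher without overlap, Tap1 (0.62 ± 0.24, edgeR adjusted p = 0.0274) was higher with overlap, and B2m was lower (-0.51 ± 0.16, edgeR adjusted p = 0.00633). The counts of 3 higher and 1 lower of 10 stand beside 30.2% and 33.5% of all genes, so the first is near the background and the second below it. The replicate block, which applies here also, added Psmb9 (0.30 ± 0.11, edgeR adjusted p = 0.0186). With it 4288 of the 13453 genes were higher and 4776 lower. In the fit without the block Psmb9 stood at 0.31 (edgeR adjusted p = 0.0593). Leaving out CD11c+ replicate 4 as well brought Psmb9 to 0.15 (edgeR adjusted p = 0.373). The blocked fit was not run without that library. Without CD11c+ replicate 4, Tap1 stood at 0.27 (edgeR adjusted p = 0.31), and without CD206+ replicate 3 at 0.60 (edgeR adjusted p = 0.0562). B2m stood at -0.37 without CD206+ replicate 2 (edgeR adjusted p = 0.0528). In WT cells on HFD 0 of 10 members passed by edgeR, by DESeq2 or at an unadjusted p under 0.05, where 11.7% of all genes were higher and 8.7% lower.

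The effect of genotype differed between the populations for Psmb8 on SD, by 0.92 in CD11c+ cells against 1.44 in CD206+ cells (-0.51 ± 0.16, edgeR adjusted p = 0.0418), beside 4.1% of all genes higher and 2.48% lower. The call was lost in 8 of 16 fits without 1 library, and without CD11c+ WT replicate 4 it was -0.38 (edgeR adjusted p = 0.113). With the block it was -0.51 (edgeR adjusted p = 0.0137), where 920 of the 13453 genes were called higher and 692 lower. On HFD no member had such a difference by edgeR, by DESeq2 or at an unadjusted p under 0.05, beside 2.16% of all genes higher and 2.2% lower.

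Over the 8 group means of log2 CPM the 45 pairs of members correlated with r between 0.803 (B2m and Psmb8) and 0.994, with a median of 0.968. The points share genotype, and every KO mean lies above every WT mean. The non-members most like the mean pattern of the 10, by the same measure, were Cxcl9 (r = 0.999), a chemokine induced by interferon gamma, Irg1 (0.999), which encodes the enzyme that makes itaconate, Ly6i (0.996), Gm15056 (0.995) and Nmi (0.994). The members themselves reached 0.946 for Psmb8 to 0.996 for Tap1.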

How the data were processed

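For each of the 32 libraries the authors deposited raw counts of reads per gene symbol, as whole numbers. Per the submitters' processing notes, the tools were TopHat2 2.1.0, Trimmomatic 0.35, SAMtools 0.1.18 and FastQC 0.11.4, with mm10 (GRCm38) as the genome. Counter, annotation, strand setting and kit: not given in the sources used here. Each table has 24421 genes and 5 further entries without a gene, which entered neither library sizes nor tests. Reads outside genes made up 5.16% to 11.1% and ambiguous reads 0.992% to 1.48% of a library's reads. Every pair of replicates differed beyond sampling noise (chi-square per degree of freedom 10.9 to 68.1).

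Counts were analysed with edgeR 4.0.16 in R 4.3.3: filterByExpr with a minimum count of 10, TMM scaling (factors 0.856 to 1.08), and 1 quasi-likelihood fit of all 32 libraries with 8 group means and 16 contrasts. P-values were adjusted by Benjamini-Hochberg over the 13453 genes of a contrast, with the threshold at 0.05. Interactions are the KO effect on HFD minus that on SD, or in CD11c+ minus CD206+ cells. Intervals are 95%. A fit of the same kind was run on simulated counts modelled on CD11c+ KO and WT cells on HFD only. Its outcome is not given here. Alternatives were relative log expression scaling, no filter, DESeq2 1.42.0, only the groups of a contrast, a replicate block, and leaving out each library.

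Same-numbered CD11c+ and CD206+ libraries deviated together in KO cells on SD and in WT cells on both diets (lowest correlation 0.143, 0.228 on HFD and 0.143 on SD), so the block by condition was used beside those population results. In KO cells on HFD replicates 3 and 4 deviated together (0.333 and 0.202), but replicates 1 and 2 did not (-0.035 and -0.049). Between genotypes or diets, same-numbered libraries did not deviate together as a set.

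The rule for named genes took all 10 members and, from each other list, up to 2 genes per direction with the largest change past the threshold, with Psmb5, Psmb6, Psmb7, Irf1, Rfx5 and Ciita, and the 5 non-members of most like pattern. The text names part of these: members that did not pass are often given as counts or ranges, and listed genes chiefly for KO against WT. Marker genes and the H2-D1 DESeq2 call were named after their values were seen. Members and lists were chosen with earlier results of these data known. A further listed gene is not reported here.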

Additional observations from a re-analysis of the deposited data

Results flagged for a closer look

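Replicate 4 of CD11c+ WT cells on SD lay far above the other 3 libraries of its group in 3 genes: Tap2 at 156.8 CPM (others 94.3 to 104), Tapbp at 765.3 CPM (others 432 to 464) and Psmb9 at 79.56 CPM (others 52.1 to 56.2). The test for a far value was run on 80 groups of 4, and chance flags about 1 in 20. The summed class II genes were also highest in this library (94240 CPM, others 63420 to 75140), as were the summed T and NK cell markers (219 CPM, others 148 to 194). The summed dendritic cell markers were not (318 CPM, others 294 to 595). The part of these cells was not tested.

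The effect of genotype differed between the diets in CD11c+ cells for Psmb8, by 0.72 on the log2 scale (0.725), and for Psmb9, by 0.54. Between the populations on SD it differed for Psmb8, by -0.51. All 3 contrasts use the group of that library.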

How the results depend on the processing

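All 40 changes of the 10 genes between KO and WT cells kept their direction and passed in all 520 values under the alternatives (0.70 to 2.57, largest edgeR or DESeq2 adjusted p 0.00429). Other calls moved. For CD11c+ against CD206+ KO cells on HFD, 2 members higher became 1 with relative log expression scaling, DESeq2 or only the groups of the contrast. With the replicate block by condition they became 4, with 1 lower (Nlrc5) in place of 0, though replicates 1 and 2 of these groups did not deviate together. On SD in KO cells 2 became 4 with that block. In KO cells it called 3456 of the 13453 genes higher and 3490 lower on HFD, and 3720 and 3850 on SD. The genotype by diet difference in CD11c+ cells kept 1 of 2 members with the replicate block over all libraries or only the groups of the contrast. The population difference on SD kept 0 of 1 without a filter. Psmb9 made 1 member lower in place of 0 between the diets in CD206+ WT cells with only those groups. The block changed no other call of a member but those given with the population results.

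Leaving out 1 library gave 1 to 2 members higher between the populations in KO cells on HFD, 1 to 2 for genotype by diet in CD11c+ cells, 0 to 1 higher between the diets in CD11c+ WT cells, 0 to 1 lower in CD206+ WT cells, 0 to 1 lower for genotype by population on SD, and 0 to 2 lower between the populations in WT cells on SD (0 without CD206+ replicate 2, 2 without CD11c+ replicate 4). The log2 differences of Psmb8/Psmb5, Psmb9/Psmb6 and Psmb10/Psmb7 ran from 1.38 to 1.55, 1.90 to 2.14 and 0.88 to 1.07 (KO against WT, CD206+ on HFD), 0.89 to 1.00, 1.24 to 1.44 and 0.71 to 0.89 (KO against WT, CD11c+ on SD), and -0.71 to -0.57, -1.20 to -0.97 and -0.28 to -0.12 (HFD against SD, CD11c+ WT). In 17 of these ratio values the adjusted p fell to 0.049, past the threshold, without CD206+ KO replicate 2 or 3 on HFD or CD11c+ WT replicate 1 or 4 on SD. The sizes hardly moved: the exact permutation p was at its smallest possible value, and more of the 36 tests reached it. The cause of the other changes was not tested.

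Counts over all genes moved by more than 1.5 times between the diets in KO cells, where DESeq2 called 37 higher and 10 lower in CD11c+ cells (edgeR 1 and 0; 0 higher with the block or only those groups) and 7 and 7 in CD206+ cells (edgeR 0 and 0; 1 lower without a filter). They moved in genotype by population on HFD (290 and 296; 448 higher by DESeq2, 641 and 568 with the block) and on SD (551 and 333; 553 lower by DESeq2, 920 and 692 with the block), and between the populations in WT cells on HFD (1171 lower, 1815 with the block). Leaving out 1 library gave 0 to 73 higher and 0 to 7 lower between the diets in CD11c+ KO cells (73 without HFD replicate 1), 0 to 6 higher and 0 to 1 lower in CD206+ KO cells, 164 to 355 higher and 141 to 345 lower for genotype by population on HFD, 198 to 445 lower on SD, and 1120 to 1685 lower for KO against WT in CD206+ cells on SD (1120 without KO replicate 4).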

Other observations

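Within a group the 10 genes often shared the same highest or lowest library. In CD206+ KO cells on HFD, replicate 3 was the lowest and replicate 4 the highest of 4 libraries in all 10 genes. Replicate 3 was the highest in all 10 genes in CD11c+ WT cells on HFD and also in CD206+ WT cells on HFD. In KO cells on SD, replicate 2 was the lowest in 9 of 10 genes in CD11c+ and in 9 of 10 in CD206+ cells. The share of all genes with such a pattern was not counted, and other lists varied with these libraries. Replicate 3 of CD206+ KO cells on HFD also had the lowest summed class II genes and macrophage markers. Replicate 3 of both WT groups on HFD had the highest of both sums. Replicate 2 of both KO groups on SD had the lowest class II sum, but the lowest macrophage sum in CD206+ cells only. What makes whole libraries differ was not tested.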
